A study of Macaca mulatta with 12 samples.

Results

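Progesterone given without estrogen was compared with placebo in the dorsal raphe of female rhesus monkeys, on the 3 arrays titled progesterone and the 3 arrays titled placebo, which are 6 of the 12 arrays in the series. The dorsal raphe, in the midbrain, is a main source of serotonin fibres to the forebrain, and the samples were blocks of this tissue, so each array averages neurons, glia and vessels. Each array came from 1 monkey, which had carried steroid or placebo implants under the skin for 1 month. The other 6 arrays came from monkeys given estrogen, or estrogen plus progesterone. They helped to estimate the spread between animals, to normalize the arrays and to choose the probe sets tested. They were also used to test whether progesterone acted differently with and without estrogen. Placebo titles include OVX, taken to mean ovariectomized. No other group's title has it, and the labels do not say whether the treated monkeys had also lost their ovaries. The progesterone arrays carry the code EP in their titles and P in their descriptions, and were taken as progesterone alone.

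Progesterone acts through the progesterone receptor, a nuclear receptor that binds DNA and changes transcription of target genes, and through membrane receptors of the PGRMC and PAQR families. In brain it is also converted to neurosteroids that act on GABA-A receptors. The progesterone receptor is induced by estrogen in many tissues, so progesterone alone and progesterone given with estrogen are commonly studied side by side. Serotonin neurons of the macaque raphe are known to carry estrogen receptor beta and progesterone receptor.

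The arrays were scaled to the same level by their authors, and rank correlations were 0.906 to 0.918 between progesterone arrays, 0.897 to 0.946 between placebo arrays and 0.863 to 0.944 between a progesterone and a placebo array. The second principal component carried 17.2% of the variance, and on it the progesterone arrays stood at 14.1, 46.3 and 54.5, above the 3 placebo arrays (-18.1, -9.70 and -12.7) and above the other 6. Placebo array 1 stood apart from the other 2 placebo arrays on the first component, at 51.6 beside -4.65 and -15.8, together with estrogen array 1 (44.9) and estrogen plus progesterone array 1 (44.0), so the 3 arrays apart carry the same replicate number. A control transcript for RNA quality, EF1A, gave a 3′ minus 5′ log2 signal of -0.37, -0.31 and -0.33 in the progesterone arrays, against -0.03, 0.07 and 0.02 in the placebo arrays. The same measure for actin was 0.66, 1.23 and 0.97 against 0.63, 0.38 and 0.11. Neither measure overlapped between the groups, while the GAPDH control (0.11, 0.59 and 0.31 against 0.42, 0.50 and 0.48) did. The EF1A values of the progesterone arrays also lay below those under estrogen (0.74, 0.22 and 0.12) and under estrogen plus progesterone (0.65, -0.08 and 0.07). Their actin values overlapped with those under estrogen (0.55, 0.52 and 0.90) but lay above those under estrogen plus progesterone (0.48, 0.63 and 0.59). With EF1A as a covariate, 87 probe sets passed in place of 35, and 27 of the 35 were among them; the part of RNA quality in the other results was not tested further. The precision was set by 3 animals per group: the 95% confidence interval of a log2 difference extended a median of 0.49 to each side.

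Most of the transcripts past the threshold were higher under progesterone. With limma and Benjamini-Hochberg adjustment, 35 of 26383 tested probe sets (0.133%) passed an adjusted p of 0.05, of which 31 (0.117%) were higher and 4 (0.0152%) lower under progesterone. Every call drew on the spread estimated over all 4 groups: a fit of only the 6 progesterone and placebo arrays called 0, with a smallest adjusted p of 0.0852 and 2255 probe sets at an unadjusted p under 0.05. The 31 rose by 2.16-fold to 12.03-fold, with a median of 3.77-fold. Of the 35, 17 carried a gene name and stood for 15 genes, and 18 carried no single gene name in the annotation used. The genes that rose were PPP2R2C, PPM1A, CCDC88A, ANKRD11, ITPRID2, WASHC4, TM7SF3, SREK1, MYO6, GPBP1, USP16 and EXTL2, and those that fell were SFPQ, LPCAT4 and CD47. They include 2 protein phosphatase genes, nuclear proteins of chromatin, transcription and splicing, proteins of endosomes and the actin cytoskeleton, and a surface protein that restrains phagocytosis. With arrays aligned on their medians, 8 of the 15 genes passed (PPP2R2C, PPM1A, CCDC88A, ANKRD11, WASHC4, TM7SF3, MYO6 and LPCAT4). The other 7 did not, with adjusted p of 0.0507 for USP16 and SFPQ, 0.0755 for SREK1, 0.0925 for ITPRID2, 0.104 for GPBP1, 0.111 for CD47 and 0.174 for EXTL2.

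Below this threshold the balance between directions was even. Of 2605 probe sets (9.87%) with an unadjusted p under 0.05, 1250 were higher and 1355 lower. All 3 arrays under progesterone exceeded every placebo array in 1956 probe sets (7.41%) and stood below every one in 2075 (7.86%), together 15.3%. Differences of 2-fold or more were more common upward: 304 of the 1956 (15.5%) reached 2-fold, against 101 of the 2075 (4.87%). The median difference over all tested probe sets was -0.02. The even split depended on the scaling: with arrays aligned on their medians in place of quantile normalization, the median of all differences was -0.12 and the split was 955 above and 3116 below (23.5% above, in place of 48.5%). Changes in gene groups are therefore given below beside the same measure over all genes.

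**Figure D1:**
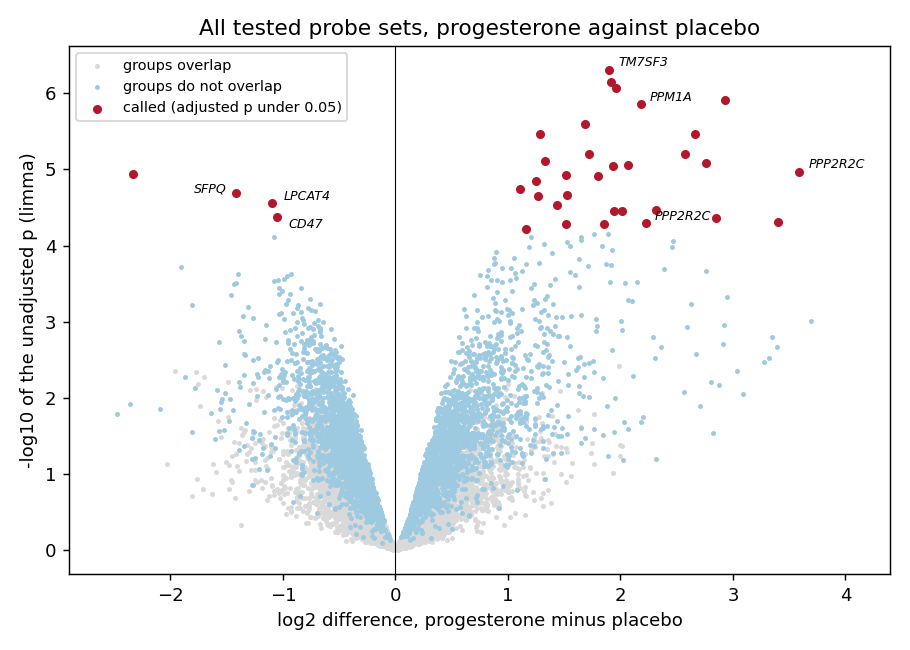
Each point is 1 of 26383 tested probe sets, with the log2 difference (progesterone minus placebo) on the horizontal axis and -log10 of the unadjusted limma p on the vertical axis; blue points are probe sets whose progesterone and placebo arrays do not overlap, and red points are the 35 called. Of the red points, 31 lie to the right and 4 to the left.

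The largest rise on a called probe set was in a phosphatase gene. PPP2R2C codes for a regulatory B subunit of protein phosphatase 2A, found mainly in brain, which directs the enzyme to its substrates. On its first called probe set the log2 intensity was 10.44, 10.48 and 10.13 in the progesterone arrays, against 5.28, 7.29 and 7.72 in the placebo arrays. All 3 progesterone arrays were high and close together, and the placebo arrays were spread, with placebo array 1 lowest. The means were 10.35 ± 0.19 and 6.76 ± 1.30 (SD, n = 3 each), a rise of 12.03-fold (log2 3.59 ± 0.49, SE, adjusted p = 0.0180). Without placebo array 1 the rise was 2.85 on the log2 scale (adjusted p = 0.00497). The second called probe set read 10.25, 9.75 and 9.74 against 6.95, 7.89 and 8.22, again without overlap, a rise of 4.68-fold (adjusted p = 0.0407), which did not pass without placebo array 1 (log2 1.86, adjusted p = 0.103). The brightest PPP2R2C set differed by only 0.49 with overlapping groups (adjusted p = 0.575), and the remaining set by -0.07. PPM1A, a magnesium-dependent phosphatase that acts on SMAD and stress kinase signalling, read 8.99, 8.95 and 9.13 in the progesterone arrays, against 6.44, 7.13 and 6.96 in the placebo arrays. The progesterone values lay within a narrow band far above placebo, and the rise was 4.54-fold (log2 2.18 ± 0.24, SE, adjusted p = 0.00735). The other PPM1A sets, all brighter, differed by 0.39, 0.31 and 0.06, and none passed.

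Genes of the nucleus made up the next group. ANKRD11, a chromatin cofactor that binds histone deacetylases and steroid receptor coactivators, read 8.69, 8.52 and 8.42 under progesterone, against 6.70, 6.25 and 6.79 under placebo. The groups stood well apart, and the rise was 3.90-fold (log2 1.96 ± 0.21, SE, adjusted p = 0.00735). SREK1, a splicing regulator rich in arginine and serine, read 8.62, 8.54 and 7.66 against 6.04, 6.27 and 6.93. Progesterone array 3 was the nearest to placebo, and the rise was 3.62-fold (adjusted p = 0.0407). USP16, which removes ubiquitin from histone H2A, read 8.63, 9.07 and 8.69 under progesterone, against 7.15, 7.11 and 7.57 under placebo, and rose 2.86-fold (adjusted p = 0.0180). GPBP1, a factor that binds GC-rich promoters, read 9.66, 8.97 and 8.93 against 7.92, 7.26 and 7.82 and rose 2.86-fold (adjusted p = 0.0407). In both genes the lowest progesterone array lay above the highest placebo array by about 1 log2 unit.

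Another group belonged to endosomes, motors and the actin cytoskeleton. WASHC4, a subunit of the WASH complex that builds branched actin on endosomes, was called on 2 probe sets. They read 8.63, 9.29 and 8.51 against 6.86, 6.99 and 7.42, and 8.23, 8.17 and 7.88 against 5.82, 6.11 and 6.55. Neither overlapped, and the rises were 3.29-fold (adjusted p = 0.0166) and 3.83-fold (adjusted p = 0.0171). MYO6, a myosin that moves toward the minus end of actin filaments in endocytosis, read 8.17, 8.5 and 7.49 against 6.29, 6.08 and 6.38, a rise of 3.49-fold (adjusted p = 0.0180). CCDC88A, also called girdin, an actin-binding protein of migrating neurons, read 8.43, 8.23 and 7.71 against 5.37, 6.28 and 6.69. Placebo array 1 was again the lowest, and the rise was 4.03-fold (adjusted p = 0.0335). The CCDC88A set and the second WASHC4 set averaged 6.14 and 5.91 over the other 9 arrays, under the filter of 6.31, so they were tested only because the progesterone arrays were high, as were 4 of the unnamed calls. With no filter neither passed (adjusted p = 0.0834 for CCDC88A and 0.0532 for WASHC4). ITPRID2, which anchors inositol trisphosphate receptors to actin, read 9.75, 9.49 and 8.84 against 7.48, 7.02 and 7.76 and rose 3.84-fold (adjusted p = 0.0335).

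The remaining genes that rose were TM7SF3 and EXTL2. TM7SF3, a membrane protein with 7 transmembrane segments, had the lowest p of all probe sets. It read 8.63, 8.25 and 8.26 under progesterone, against 6.24, 6.48 and 6.72 under placebo, so the groups were separated by more than the spread within either, and the rise was 3.73-fold (log2 1.90 ± 0.19, SE, adjusted p = 0.00735). The brightest TM7SF3 set differed by 0.40 with overlapping groups and did not pass (adjusted p = 0.709). EXTL2, a glycosyltransferase that acts on the linkage region of heparan and chondroitin sulfate, read 9.18, 9.11 and 8.82 against 7.90, 7.87 and 8.01, the smallest rise at 2.16-fold (adjusted p = 0.0239).

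The 3 named genes that fell did so by 2.07-fold to 2.66-fold. SFPQ, an RNA-binding protein of splicing and a core component of the nuclear bodies called paraspeckles, read 7.79, 7.57 and 7.59 in the progesterone arrays, against 8.98, 9.11 and 9.10 in the placebo arrays. Both groups were tight and far apart (log2 -1.41 ± 0.20, SE, adjusted p = 0.0253). LPCAT4, an acyltransferase that remodels phospholipids, read 7.09, 6.91 and 6.81 against 8.01, 7.97 and 8.10 (log2 -1.09 ± 0.16, SE, adjusted p = 0.0307). CD47, the surface signal that restrains phagocytosis by macrophages and microglia, read 8.70, 8.48 and 8.32 against 9.5, 9.75 and 9.39 (log2 -1.05 ± 0.16, SE, adjusted p = 0.0381). In each of these genes the highest progesterone array was below the lowest placebo array.

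**Figure D2:**
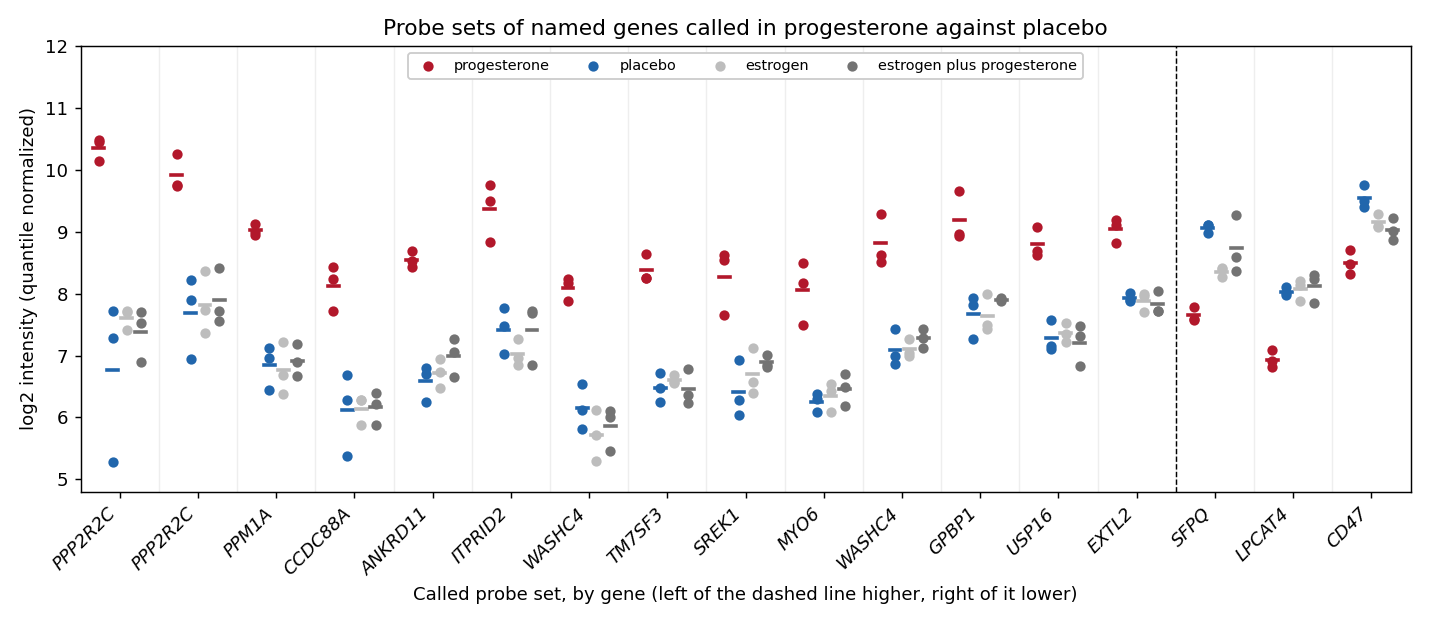
Log2 intensity of the 17 called probe sets of named genes in each of the 12 arrays, with points for single arrays and short lines for the group means (n = 3), in the order progesterone, placebo, estrogen, estrogen plus progesterone. In every probe set left of the dashed line the 3 red progesterone points lie above all 9 others, and right of it below all 9.

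The called probe sets were also read in the monkeys that received estrogen, with or without progesterone. All 31 higher probe sets were above all 9 other arrays of the series, and all 4 lower ones below all 9. This was partly fixed in advance, since the sets were chosen for their distance from the placebo arrays. Of all tested sets, 1956 lay above the placebo arrays and 653 (2.48%) above all 9 others. In the other direction, 2075 lay below the placebo arrays and 547 (2.07%) below all 9. PPP2R2C on its first probe set averaged 7.37 ± 0.42 under estrogen plus progesterone, 7.61 ± 0.18 under estrogen and 6.76 ± 1.30 under placebo (SD, n = 3 each). SFPQ averaged 8.74 ± 0.47 under estrogen plus progesterone and 8.35 ± 0.08 under estrogen, against 9.06 ± 0.07 under placebo. LPCAT4 averaged 8.13 ± 0.25, 8.08 ± 0.17 and 8.03 ± 0.07 in the same order. The test of whether progesterone acted differently with and without estrogen (the interaction) called 0 of 26383 probe sets (0%) with limma, where the smallest adjusted p was 0.211 and 1688 sets (6.4%) had an unadjusted p under 0.05. The interaction was therefore not shown for any single gene. The called probe sets were chosen on arrays that the interaction also uses, so their own interaction values carry no separate weight.

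Few of the calls were bright probe sets. With the tested probe sets ordered by mean intensity and divided into 4 equal bins, the calls numbered 10, 14, 9 and 2 from the dimmest bin to the brightest. The 15 called genes had 51 probe sets in all, 45 of them bright enough to be tested, and 28 of these were not called. Of the 28, 8 lay outside the placebo range in the direction of the call, and 1 on the opposite side. Over all tested probe sets, 7.41% lay above that range and 7.86% below it. Among the 8, sets of WASHC4, USP16, CD47 and GPBP1 differ in name from a called set only by a suffix, so they may not be separate readings. The brightest probe set of the gene was itself called only in LPCAT4, which made it the 1 call among the brightest probe sets of 9305 genes (0.0107%). In 11 of the 15 genes the brightest set differed in the direction of the call, and in 3 of the 15 it lay outside the placebo range that way. The median difference of the brightest sets in the direction of the call was 0.16 on the log2 scale. Probe sets of a gene read different stretches of its transcripts, and which transcript each one reads was not determined here.

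ANKRD11 had probe sets outside the placebo range on both sides. Its brightest set read 8.90, 8.55 and 8.72 under progesterone, against 9.12, 9.30 and 9.06 under placebo, a difference of -0.44 that did not pass (adjusted p = 0.374). Its 2 sets that were too dim to be tested read 8.57, 8.32 and 8.41 against 4.47, 6.33 and 6.34, and 7.34, 7.54 and 6.26 against 4.18, 5.66 and 6.06. So 3 of its 4 sets were above placebo in every progesterone array and 1 was below. In CCDC88A the 3 uncalled sets differed by -0.50, -0.33 and -0.20, opposite to the call. USP16 and WASHC4 had further sets near the called ones, at 1.59 (adjusted p = 0.0862) and 1.44, beside brightest sets at 0.05 and 0.09. Each of these further sets differs in name from a called set only by a suffix, so it may not be a separate reading. CD47 had a set at -1.64 and a brightest set at -0.40, both outside the placebo range, and a bright set at -0.02 whose groups overlapped. The brightest CD47 set differs in name from the called set only by a suffix, so it may not be a separate reading. The same holds for a GPBP1 set at 0.88. SFPQ had a brightest set at -0.16 whose groups overlapped.

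**Figure D3:**
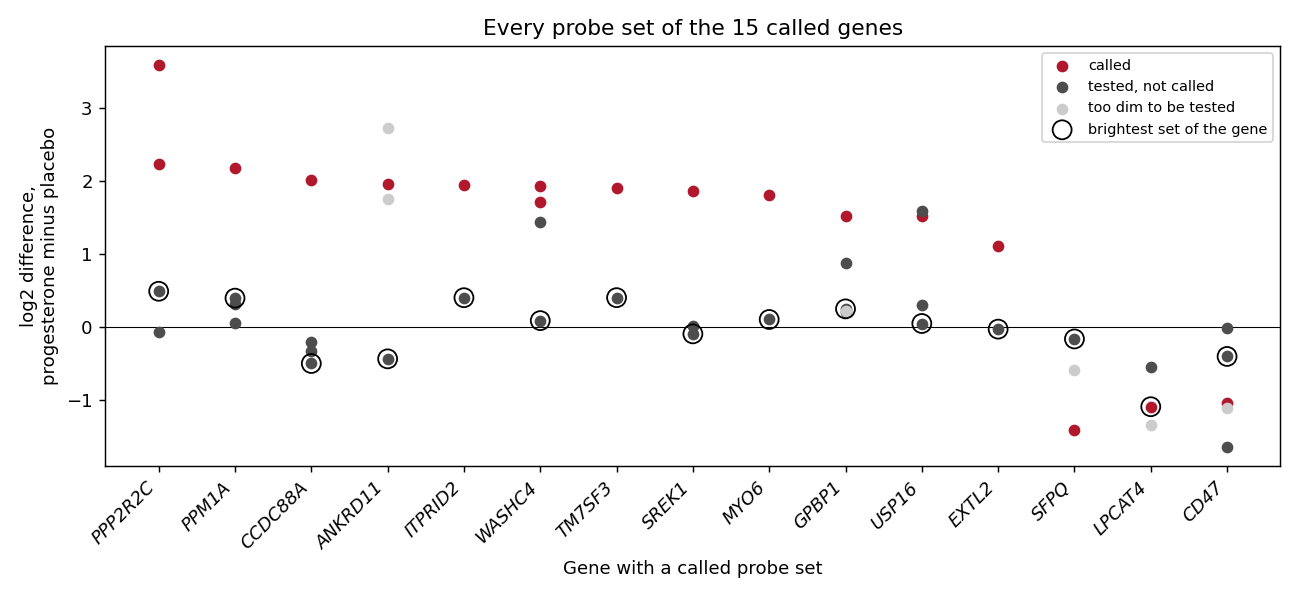
Log2 difference (progesterone minus placebo) of every probe set of the 15 genes with a call, by gene; red points are called sets, dark points tested sets that were not called, pale points sets too dim to be tested, and rings mark the brightest set of each gene. Only in LPCAT4 is the ringed point red. In ANKRD11, CCDC88A, SREK1 (-0.09) and EXTL2 (-0.03) the ringed point lies on the opposite side of 0 from the called one.

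Genes read by several probe sets give a view that rests on more than 1 set, although sets whose names differ only in a suffix may read the same target. Of 3584 genes with 2 or more tested sets, 28 (0.781%) had every set above the placebo range and 31 (0.865%) every set below it, while 66 had sets on opposite sides. RBM25, an RNA-binding protein that controls splice site choice, had the largest mean difference among the 28: its sets read 9.21, 9.26 and 9.08 against 5.71, 5.13 and 7.95, and 7.79, 7.92 and 7.63 against 5.48, 5.94 and 7.27. The progesterone arrays were close together and the placebo arrays far apart, and neither set passed (log2 2.92 and 1.55, adjusted p = 0.164 and 0.204). CCAR1, a coactivator of nuclear receptors and cell cycle regulator, read 10.06, 10.18 and 9.75 against 7.29, 8.70 and 9.40 on 1 set and differed by 1.54 and 1.60 on its 2 sets. The names of the CCAR1 sets differ only in a suffix, so they may not be separate readings. TRPM3, a cation channel opened by heat and by the neurosteroid pregnenolone sulfate, came closest to passing: it read 9.12, 9.0 and 9.22 against 6.84, 7.03 and 7.82, a difference of 1.89 (adjusted p = 0.0507), with 0.60 on its other set.

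Other genes in this class were KPNB1, the importin beta carrier of nuclear import (1.04 and 1.18), PLEKHA1 (0.30 and 1.37), TMEM245 (0.68 and 0.86) and USP1, a deubiquitinase of DNA repair (0.27 and 1.23). BCAT1, the cytosolic transaminase of leucine, isoleucine and valine, was chosen after its values were seen and lay above placebo on 4 of 4 sets, by 0.23 to 1.01. None of these passed. ITPRID2 was also in this class (0.40 and 1.94) and was called on the second of its sets (adjusted p = 0.0335). In the opposite direction, the largest mean differences belonged to CYP2A23, a cytochrome P450 (-1.35 and -0.97), and FMN2, a formin that nucleates actin (-1.35 and -0.89). They were followed by USP21 (-1.23 and -0.42), LPCAT4 (-1.09 and -0.55), ASTN2, a protein of neuronal migration (-1.25 and -0.24), FAIM2, an inhibitor of apoptosis in neurons (-0.99 and -0.50), the corepressor CTBP1 (-0.69 and -0.59) and the splicing factor SF3B3 (-0.99 and -0.28). Of these 8 genes only LPCAT4 passed, on 1 set.

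Among single probe sets, the lower genes next in order of p were not called. YPEL5 read 8.92, 8.59 and 9.08 against 9.97, 9.77 and 10.08, which did not overlap, a difference of -1.08 (adjusted p = 0.0512). Then came KCTD6, an adaptor of a ubiquitin ligase (-0.99), ELFN2, a postsynaptic protein that binds glutamate receptors (-1.08), the mitochondrial ribosomal protein MRPL30 (-1.44), EXOC3L1 (-0.84), the microtubule-associated kinase DCLK2 (-1.04), ZNF41 (-1.01), the fucosyltransferase FUT8 (-1.03) and the sialyltransferase ST6GALNAC2 (-1.46). FUT8 read 8.30, 8.39 and 7.99 against 9.58, 9.06 and 9.13, and ST6GALNAC2 read 6.34, 5.37 and 6.26 against 7.73, 7.30 and 7.33.

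Gene families were described by counts and medians. Over all named genes, 7.43% of 15020 tested probe sets lay above the placebo range and 8.59% below, and 17 (0.113%) were called. On the brightest set of each gene, 4075 genes differed upward and 5230 downward, with a median of -0.04; 6.56% lay above the placebo range and 9.09% below. Genes named in the family accounts on a probe set other than the brightest of the gene were chosen after their values were seen.

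The family of splicing factors and hnRNP proteins had 16 of 130 probe sets above placebo (12.3%) and 5 below (3.85%). SREK1 was its only call. SRRM2, a scaffold of nuclear speckles, read 10.71, 10.67 and 10.39 under progesterone, against 6.90, 8.78 and 8.72 under placebo, a difference of 2.46 that did not pass (adjusted p = 0.0565). The progesterone arrays were tight and placebo array 1 was far below the other 2 placebo arrays. SON, another speckle scaffold, differed by 1.83, LUC7L3 by 1.87, PNISR by 1.65 and 1.79, SRSF11 by 0.70 and the kinase CLK1, which phosphorylates SR proteins, by 0.38, and none passed. Below placebo were single sets of HNRNPL (-0.77), HNRNPH1 (-0.86), SRSF5 (-0.80), LUC7L2 (-0.70) and NOVA1 (-0.39). Without placebo array 1 the family had 19 sets above and 10 below, out of 131, and without progesterone array 1 it had 25 above (19.4%) and 19 below (14.7%), out of 129. Over all named genes the shares without progesterone array 1 were 12.7% above and 17.2% below, since fewer arrays overlap less often. With arrays aligned on their medians the order turned, with 9 above (6.92%) and 12 below (9.23%), where all named genes had 3.29% above and 13.1% below.

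Chromatin modifiers and remodelers had 19 of 120 sets above placebo (15.8%) and 9 below (7.50%), with ANKRD11 the only call. KMT2A, a histone methyltransferase, differed by 1.55 (adjusted p = 0.0565) and 1.16 on its 2 outlying sets, the remodeler CHD9 by 2.02 and 1.34, the bromodomain protein BRD2 by 1.09 and 1.08, and the demethylase KDM5A by 2.04 and 0.79. BPTF, a subunit of the NURF remodeling complex, read 10.39, 10.46 and 10.14 against 6.95, 9.71 and 9.89 on its brightest set. There placebo array 1 was far below the other 2, and the difference was 1.48 (adjusted p = 0.432). Also above placebo on their brightest sets were SUZ12, a Polycomb protein (0.53), and KDM4B (0.53). Below were ANKRD11 on its brightest set, BRD3, 1 of 2 outlying sets of KDM3A, KDM3B, KMT2D, DNMT3A, CHD6, ARID1A and ATRX, by -0.47 to -0.25. Without placebo array 1 the counts were 24 above and 17 below of 121. Without progesterone array 1 they were 21 above (17.8%) and 22 below (18.6%) of 118, so higher sets no longer outnumbered lower ones. Over all named genes the shares were then 12.7% above and 17.2% below. With median alignment there were 9 above (7.50%) and 17 below (14.2%), beside 3.29% and 13.1% over all named genes. In both settings the share above and the share below were each larger than those over all named genes.

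The families of the called phosphatases were counted in the same way. Protein phosphatase 2A subunits and regulators had 6 of 34 sets above placebo (17.6%) and 1 below (2.94%), among them both called PPP2R2C sets, 2 sets of TIPRL, an inhibitor of the enzyme (1.03 and 1.12), IGBP1 (0.26) and PPP2R2B, another B subunit enriched in brain (0.17). The catalytic subunit PPP2CA lay below, by -0.10. On brightest sets the family median was 0.05 over 19 genes. The PPM family had 5 of 23 sets above (21.7%) and 2 below (8.70%), with PPM1A called and PPTC7 (0.79), PPM1E (0.23) and PPM1F (0.20) not passing, and ILKAP (-0.80) and PPM1K (-0.68) below. Protein phosphatase 1 and calcineurin subunits had 1 of 32 above (3.12%) and 5 below (15.6%); PPP1R1B, the dopamine-regulated inhibitor DARPP-32, differed by -0.79 and PPP1R12A by 0.77, neither passing. With median alignment the counts above and below were 3 and 1 for protein phosphatase 2A, 2 and 2 for the PPM family and 0 and 6 for protein phosphatase 1 and calcineurin. The shares were 8.82% and 2.94%, 8.70% and 8.70%, and 0% and 18.8% in that order. All named genes had 3.29% above and 13.1% below in this setting. Without progesterone array 1 protein phosphatase 2A had 9 above and 7 below, and the PPM family 4 and 4. Over all named genes 12.7% then lay above and 17.2% below.

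The WASH complex and retromer had 5 of 26 sets above placebo (19.2%) and 2 below (7.69%), and 3 of the 5 were WASHC4. SNX27, which sorts receptors back to the surface, differed by 1.11 and the capping protein CAPZA2 by -1.27, without passing. Among actin nucleators, CCDC88A was called, and the difference of WASL was 1.67, where placebo array 1 read 6.81 beside 9.23 and 9.30 and the progesterone arrays 10.14, 10.01 and 10.20. Profilin PFN1 (-0.92) and 4 others, ARPC5L, NCKAP1, ARPC1A and WASF3 (-0.47 to -0.16), were below. Kinesins, dyneins and microtubule proteins had 11 of 52 sets above (21.2%) and 6 below (11.5%), with 0 called, but 11 and 13 without progesterone array 1 and 12 and 12 without placebo array 1. MAP1B, which stabilises axonal microtubules, read 8.53, 8.81 and 8.61 against 6.12, 7.42 and 7.82 (1.53, adjusted p = 0.188), and the dynein light intermediate chain DYNC1LI2 lay above placebo on 3 sets by 0.29 to 0.90. Deubiquitinases had 9 of 82 above (10.98%) and 8 below (9.76%), with USP16 called and USP21 below placebo on 2 sets. The order for deubiquitinases turned without progesterone array 1 (12 and 16), progesterone array 2 (9 and 10) or placebo array 1 (11 and 13), and that for actin nucleators without placebo array 3 (8 and 7). In each of these fits fewer of all tested probe sets lay above placebo than below. They numbered 3524 and 4092 without progesterone array 1, 3050 and 3577 without progesterone array 2, and 3136 and 3373 without placebo array 1. Without placebo array 3 they numbered 3117 and 3672. With median alignment the WASH complex and retromer had 3 above and 2 below, kinesins, dyneins and microtubule proteins 3 (5.77%) and 9 (17.3%), and deubiquitinases 5 (6.10%) and 10 (12.2%). For the last 2 families the order turned, and over all named genes 3.29% lay above and 13.1% below.

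Lipid and glycan families had more sets below placebo than above. Phospholipid remodelling enzymes had 0 of 32 sets above placebo and 7 below (21.9%), of which LPCAT4 was called on 1 and lay below on a second. The others were the phospholipases PNPLA8 (-0.57) and PLA2G12A (-0.54), the acyltransferases LCLAT1 (-0.43) and AGPAT1 (-0.29), and PTDSS1, which makes phosphatidylserine (-0.25). On brightest sets, 15 of 22 genes were lower, with a median of -0.07 beside -0.04 for all genes. With median alignment 0 were above and 8 below of 32 (25%), where all named genes had 3.29% above and 13.1% below. Heparan sulfate enzymes had 2 of 30 sets above (6.67%), namely EXTL2, which was called, and HS2ST1, and 5 below (16.7%), which were SULF1 on 2 sets (-0.69 and -0.55), B3GALT6, GLCE and EXT1. With median alignment these enzymes had 1 above (3.33%) and 7 below (23.3%), beside 3.29% and 13.1% over all named genes.

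**Figure D4:**
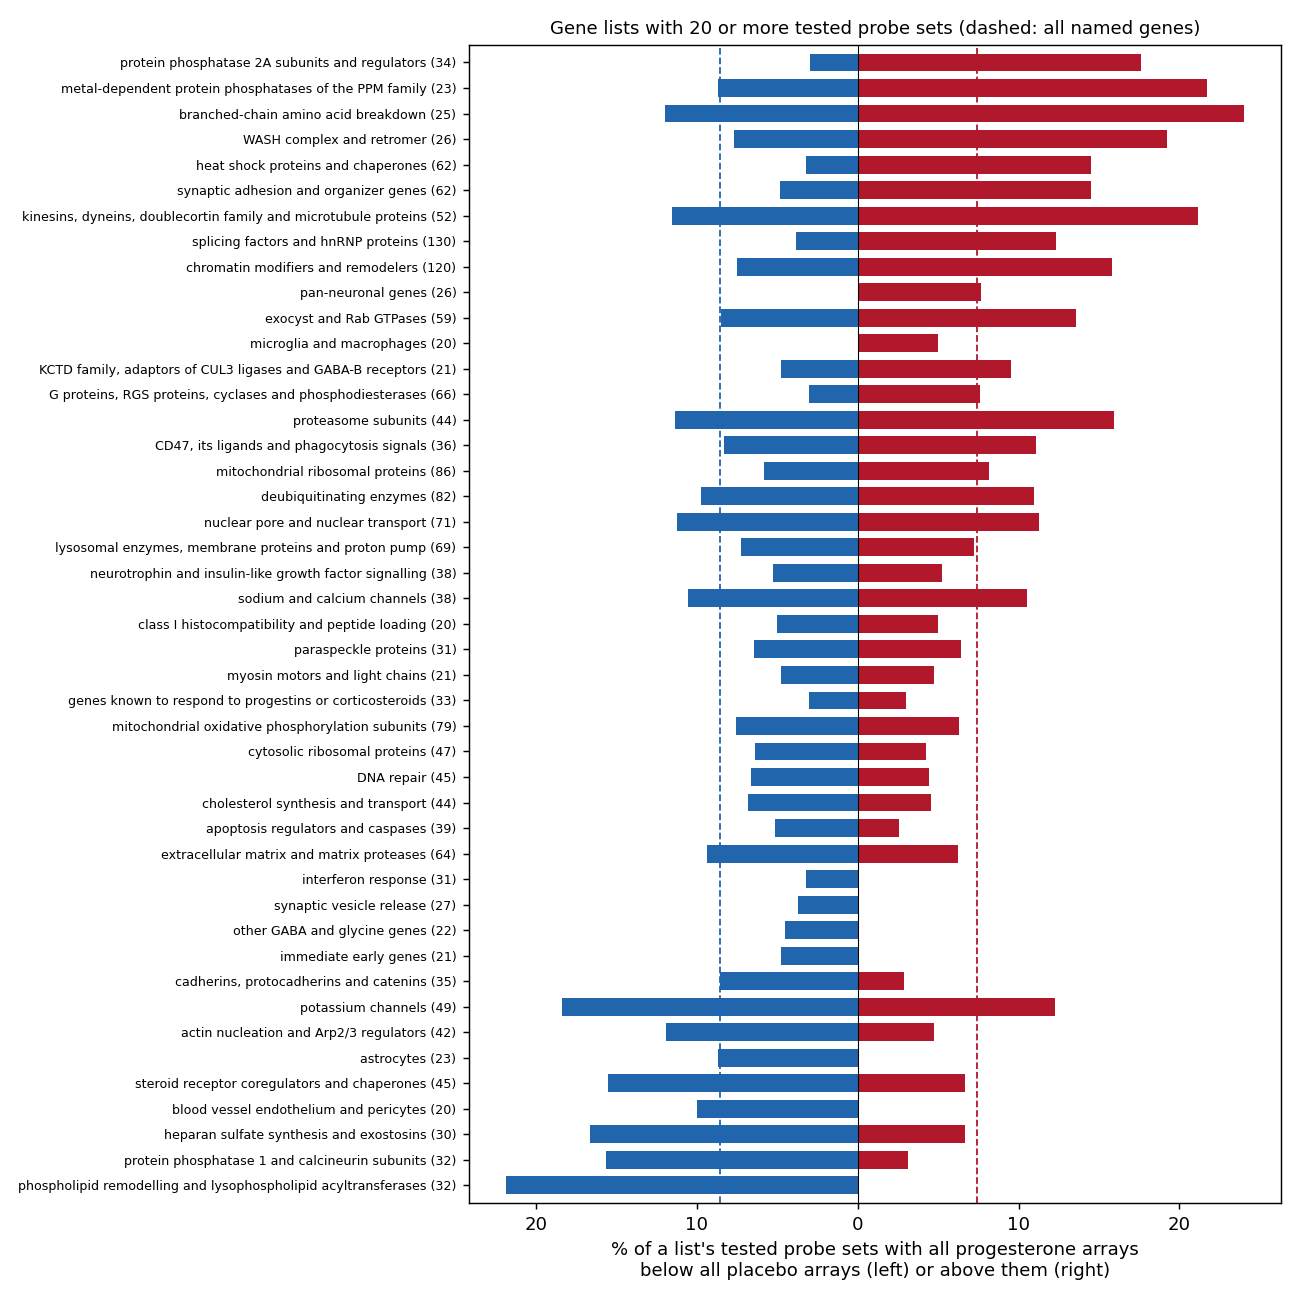
For each gene list with 20 or more tested probe sets (number in brackets), the share of sets in percent whose 3 progesterone arrays lay above all placebo arrays (red, to the right) or below them (blue, to the left); dashed lines give the shares over all named genes, 7.43% and 8.59%. Splicing factors reach 12.3% to the right and 3.85% to the left, and phospholipid remodelling enzymes 21.9% to the left and none to the right.

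Genes that carry or answer progesterone signals gave no call. The progesterone receptor PGR, the estrogen receptor ESR1, the serotonin autoreceptor HTR1A and the steroid-induced FKBP5 were too dim to be tested. Among membrane receptors, PGRMC2 lay above placebo on 2 sets (0.49 and 0.38) and PGRMC1 below on 1 (-0.38), while PAQR3 differed by 0.40. Of 23 tested genes known to respond to progestins or corticosteroids, 13 were higher and 10 lower, with a median of 0.04 and 1 gene outside the placebo range on each side. Those were ZFP36, which destabilises inflammatory mRNAs (0.73), and DUSP1, a phosphatase of stress kinases (-0.45). The coregulators had 3 of 45 sets above (6.67%) and 7 below (15.6%). NRIP1, a corepressor of nuclear receptors, differed by 1.77 and 1.30 on 2 sets and the coactivator NCOA3 by 0.78, while sets of EP300 (-0.84), CREBBP (-1.04), UBE3A (-0.57), MED1 and the receptor chaperone FKBP4 lay below. Among GABA-A receptor subunits, the targets of neurosteroids, GABRA2 read 9.28, 8.45 and 8.43 against 7.97, 7.88 and 7.93, a difference of 0.79 without overlap (adjusted p = 0.331), and the other 5 tested subunits overlapped.

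Among 5 tested genes that make, move or degrade serotonin, 4 were lower (median -0.37), as were 6 of 7 that mark the identity of serotonin neurons (median -0.09), and none passed. Of the panel of 25 raphe and hormone genes, 19 were on the array, 15 were tested and 0 were called, beside 0.133% of all probe sets. TPH2, which makes serotonin in neurons, read 7.74, 6.99 and 4.66 under progesterone, against 6.47, 7.44 and 7.80 under placebo, and the groups overlapped. SLC18A2, the vesicular monoamine transporter, read 10.03, 9.77 and 9.34 against 10.12, 10.45 and 9.95 (-0.46, adjusted p = 0.537), and FEV, the transcription factor that sets serotonin identity, 8.85, 9.44 and 9.15 against 9.30, 10.14 and 9.46 (-0.49, adjusted p = 0.574). Both were lower on average and overlapped between groups. Among enzymes of tetrahydrobiopterin, the cofactor of tryptophan hydroxylase, SPR, the final enzyme of its synthesis, read 8.22, 8.04 and 7.54 against 8.24, 8.47 and 8.80, and PCBD2, which recycles it, 7.22, 6.77 and 7.53 against 7.98, 7.63 and 7.98. Neither overlapped and neither passed (-0.57 and -0.69, adjusted p = 0.478 and 0.252). CRHR1, the receptor for the stress peptide CRH, read 7.46, 6.15 and 7.24 against 7.91, 7.53 and 7.89, below the placebo range in all 3 arrays (-0.83 ± 0.28, SE, adjusted p = 0.375).

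Cell type markers were read as whole lists. Of 6 serotonin neuron markers, TPH2, FEV, SLC18A2 and GATA3 were on the array, all bright enough to be tested; SLC6A4 and DDC were not found under those names. All 4 averaged lower under progesterone and none lay outside the placebo range, but their summed linear intensity was 1866 to 2323 in the progesterone arrays, against 2404 to 3473 in the placebo arrays, which did not overlap. In tissue blocks, fewer cells of a type and less RNA per cell cannot be told apart, and the part of this difference in the other results was not tested. The blood markers HBB and ALAS2 summed to 402 to 589 against 242 to 414, the ependymal and choroid markers to 229 to 470 against 369 to 500, and the cerebellar markers to 375 to 449 against 285 to 399, all overlapping, although CA8 among the last lay above placebo on every array. Microglial markers summed to 1823 to 2683 against 1820 to 2878. MBP, the 1 oligodendrocyte marker found, was near the top of the scale on every array. No marker list had a called member.

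On the longer cell type lists, all 8 tested genes of ependyma and choroid plexus were lower, with a median of -0.34. CAPS, a calcium-binding protein of ciliated cells, read 8.61, 8.56 and 8.54 against 9.0, 9.19 and 9.56 (-0.68, adjusted p = 0.227), and the water channel AQP1 7.87, 8.0 and 7.90 against 8.27, 8.09 and 8.28. Both were outside the placebo range, and neither passed. Of 18 synaptic vesicle release genes, 16 were lower, with a median of -0.15 beside -0.04 for all genes, and CPLX2, a clamp of vesicle fusion, lay outside the placebo range, at 9.79, 9.90 and 9.93 against 10.64, 10.62 and 10.37 (-0.67, adjusted p = 0.130). It was the 1 of 27 probe sets of the list to do so, but 11 of 27 (40.7%) lay below without progesterone array 1, where all named genes had 17.2%, and 6 without placebo array 1. Blood vessel genes were lower in 11 of 13, oligodendrocyte and myelin genes in 8 of 10, and catecholamine neuron genes in 6 of 7, with medians of -0.10, -0.13 and -0.29. Immediate early genes, which follow recent neuronal activity, were lower in 11 of 14 (median -0.26), and interferon response genes higher in 13 of 18 (median 0.16). Each of these 7 lists kept the sign of its median relative to all genes when arrays were aligned on medians.

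Single arrays moved the number of calls in both directions. Leaving out placebo array 1, the array that stood apart, left 14 calls, of which 9 were among the 35, and the named genes still past the threshold were TM7SF3, ANKRD11, PPM1A and PPP2R2C on 1 set. Over the 35 probe sets the size of the difference was then 1.07 to 2.96 on the log2 scale. TM7SF3, ANKRD11 and PPM1A passed in all 12 fits that left out 1 array. WASHC4 passed in 9 and 8 of them on its 2 sets (the second was tested in only 10), PPP2R2C in 8 and 3, MYO6, USP16 and EXTL2 in 8, SFPQ in 6, ITPRID2 and LPCAT4 in 5, SREK1 and CCDC88A in 4, CD47 in 3 and GPBP1 in 1.

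**Figure D5:**
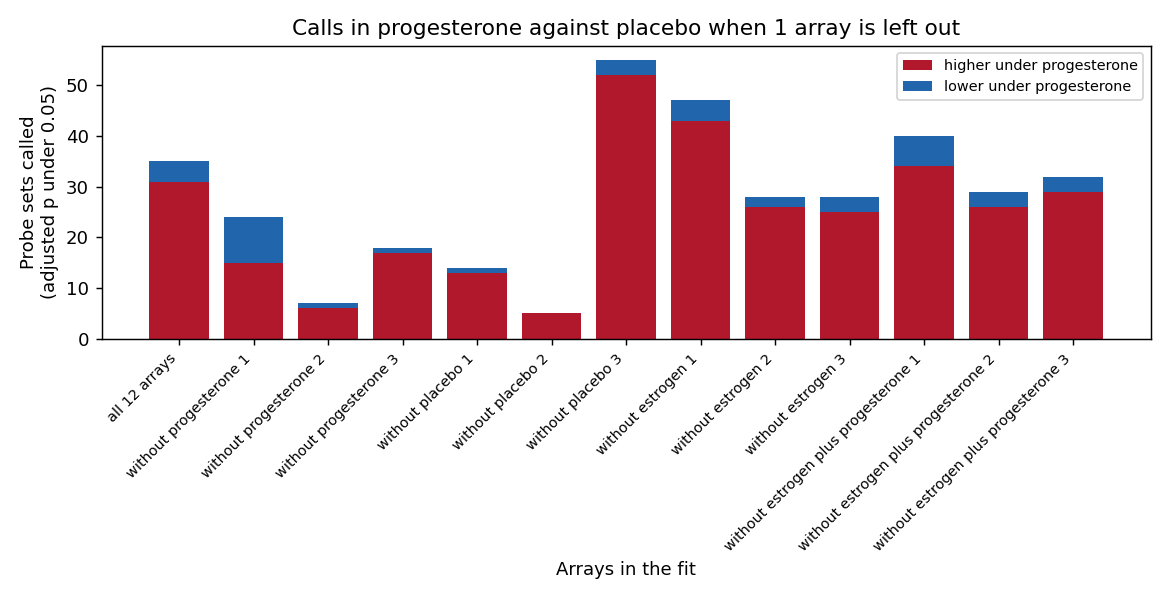
Number of probe sets called in progesterone against placebo with all 12 arrays and after leaving out each array in turn, with normalization and filter repeated; red parts of the bars are higher and blue parts lower under progesterone. The count runs from 5 without placebo array 2 to 55 without placebo array 3, beside 35 with all arrays.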

How the data were processed

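The authors deposited 1 linear intensity for each probe set of a rhesus Affymetrix array. Their values had been brought to a shared scale: the mean left after trimming 2% at either end was 200.01 on all arrays. Per the labels' protocols, total RNA was extracted with Trizol and RNeasy columns and labelled with biotin. Which software made the values is not stated in these sources. Of 52865 probe sets, 99 controls were removed, and 52766 were kept; values under the 5th percentile (intensity 4.99) were raised to it, then all were log2 transformed and quantile normalized, since array medians spanned 6.15 to 6.62. The 26383 with a mean at or above the median of means (log2 6.31, intensity 79.5) were tested.

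Names came from the rhesus platform annotation: of the tested probe sets 15020 carried 1 symbol, 918 a locus number, 224 several symbols and 10221 none; only the first kind was named. limma 3.58.1 (lmFit and eBayes, two-sided) in R 4.3.3 fitted a mean for each group to the 12 arrays, with 3.54 degrees of freedom from the prior and 8 from the residuals, and with Benjamini-Hochberg adjustment over all tested probe sets and a threshold of 0.05. Replicates are monkeys, 1 per array. An exact permutation test of 3 against 3 has 0.1 as its smallest p, so the model was used for single genes. Same-numbered progesterone and placebo arrays deviated from their group means with correlations of -0.244, -0.105 and -0.201, so the numbers were not taken to pair the animals compared.

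The rule for named genes took every gene called, the 12 lowest p in each direction among probe sets whose groups did not overlap, the 8 genes in each direction with the largest mean difference among those with every set outside the placebo range, the 4 lowest p of each gene list on brightest sets, and a panel of raphe and hormone genes. Gene lists were described, not tested. The members of the lists, the comparison and the rules were chosen with earlier results of these data known. In a test on simulated data for the same contrast, run on 26383 probe sets, the share of changes recovered was 36% for a log2 size of 1, 74% for 1.5, 92% for 2 and 100% for 3, and 12 of 163 calls were false. The simulated errors were independent normal draws, with no outlying arrays and no deviations shared between probe sets. Floor, normalization and filter were not repeated on them, so these rates may not hold for the real arrays. Other settings are given in the closing section. Plots used Python 3.11.15 and matplotlib 3.10.9.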

Additional observations from a re-analysis of the deposited data

How the results depend on the processing

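The count of 35 called probe sets was within 1.5 times of itself with arrays aligned on medians (25, 24 of them among the 35), with no filter (31, 11 shared), with the filter at the 75th percentile (34, 11 shared), with the floor at the 25th percentile (41, all 35 shared) and with the 3 arrays far out on component 1 removed (27, 10 shared). It was 66 with a trended and robust prior, 87 with EF1A as covariate, 0 with each gene limited to its brightest probe set (lowest adjusted p 0.127, 961 at an unadjusted p under 0.05) and 0 with only the 6 arrays of both groups (lowest adjusted p 0.0852, 2255 at an unadjusted p under 0.05), a fit with fewer arrays. With the replicate number as a block it was 20, all higher, 19 of them shared; all 4 lower calls were lost (adjusted p = 0.0572 for SFPQ and LPCAT4, 0.0759 for CD47). Same-numbered arrays deviated together in estrogen plus progesterone with estrogen (correlations 0.507, 0.292 and 0.142) and with placebo (0.274, 0.103 and 0.235). Between placebo and estrogen the correlations were 0.277, 0.0796 and 0.0242. Same-numbered progesterone and placebo arrays did not deviate together, so the numbers were not taken to pair the animals compared here. The part of the replicate number in the lost calls was not tested. Leaving out 1 array gave 5 to 55: 5 without placebo array 2, 14 without placebo array 1, 55 without placebo array 3, 7 without progesterone array 2 and 18 without progesterone array 3. The cause of these shifts was not tested.

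The count of probe sets outside the placebo range, 4031, was 7236 with no filter, 2220 with the filter at the 75th percentile, 1456 with only brightest sets and 6527 without the 3 arrays apart, which follows from testing more or fewer sets or arrays, and 4025 to 7616 when 1 array was left out. The interaction count of 0 was 0 to 4 when 1 array was left out: 2 without progesterone array 1 and 4 without placebo array 3. No called probe set changed direction in these settings, but the order of list counts above and below placebo turned for several families, as given beside them, and median alignment moved the split over all probe sets to 955 above and 3116 below. The depth of an array is its signal over background: probe sets under intensity 79.5, PGR among them, were not tested.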

Other observations

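Families of protein turnover, channels and metabolism that the comparison did not turn on are given here as counts. Proteasome subunits had 7 of 44 probe sets above the placebo range (15.9%) and 5 below (11.4%), with 0 called; the ATPase subunit PSMC4 read 9.45, 9.58 and 9.27 under progesterone, against 8.58, 8.79 and 8.90 under placebo (0.68, adjusted p = 0.196). Chaperones had 9 of 62 above (14.5%) and 2 below (3.23%), and 5 of the 9 were sets of CCT2, a subunit of the chaperonin that folds actin and tubulin, with differences of 0.13 to 0.72. With median alignment the proteasome had 2 above (4.55%) and 6 below (13.6%) and chaperones 2 (3.23%) and 6 (9.68%), beside 3.29% and 13.1% over all named genes. The order for the proteasome also turned without progesterone array 2 (7 and 8) and was even without placebo array 3 (7 and 7). Over all tested probe sets, 3050 lay above and 3577 below in the first of these fits, and 3117 and 3672 in the second. Potassium channels had 6 of 49 above (12.2%) and 9 below (18.4%). KCNC4, a fast delayed rectifier, lay below placebo on 2 sets (-0.66 and -0.93) and KCNH2 on 2 (-0.59 and -0.37). Median alignment gave the channels 1 above (2.04%) and 11 below (22.4%), again beside 3.29% and 13.1% over all named genes. Mitochondrial oxidative phosphorylation (6.33% above, 7.59% below, 79 sets) and cytosolic ribosomal proteins (4.26% and 6.38%, 47 sets) were close to or under the shares over all named genes, 7.43% and 8.59%. CCT2 on sets other than its brightest, and KCNH2, were chosen after their values were seen.

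Among G protein genes, GNB4, a beta subunit, read 6.97, 6.93 and 7.18 under progesterone, against 6.31, 6.17 and 5.96 under placebo. The groups did not overlap, and the difference of 0.88 did not pass (adjusted p = 0.0727). In the apoptosis list, BCL2, which protects neurons from cell death, read 5.22, 5.17 and 7.02 against 7.39, 7.51 and 7.33; the 3 placebo arrays were close together, and the difference of -1.61 rested on 2 progesterone arrays and did not pass (adjusted p = 0.462). SLC1A2, the main glutamate transporter of astrocytes, read 11.99 to 12.07 under progesterone, against 8.75 in placebo array 1 and 12.01 and 12.04 in the other placebo arrays.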
